A study of Mus musculus with 18 samples.

Results

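The aminoacyl-tRNA synthetase genes encode the enzymes that join each amino acid to its tRNA. The 36 genes described here were chosen by name from a list of synthetases and found by gene identifier among the 13104 genes of the ESC table and the 13717 genes of the EpiLC table. All 36 were present in both tables. The rule itself uses no measured value. Of the 36, 21 give the enzymes of the cytosol and 15 give enzymes of the mitochondrial matrix. Glycyl-tRNA synthetase (Gars) and lysyl-tRNA synthetase (Kars), 2 of the 21, give the cytosolic and the mitochondrial enzyme from the same gene and are counted with the cytosolic genes. Lars2 was left out by the rule.

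A synthetase first activates its amino acid with ATP and then transfers it to the 3′ end of the tRNA, so that the ribosome receives the amino acid that the codon calls for. Cytosolic ribosomes and mitochondrial ribosomes use separate sets of tRNAs, and most amino acids are therefore served by a pair of nuclear genes, with the mitochondrial enzyme imported after its synthesis. The enzymes fall into class I and class II by the fold of the catalytic domain. Several cytosolic enzymes assemble with the scaffold proteins Aimp1, Aimp2 and Eef1e1 into the multi-synthetase complex. Uncharged tRNA activates the kinase Gcn2, encoded by Eif2ak4, which leads to translation of the transcription factor Atf4, and many cytosolic synthetase genes are known targets of Atf4.

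The RNA came from mouse ESCs that carry the reporters Blimp1::mVenus and Stella::ECFP, grown in 2i and LIF, and from EpiLCs derived from such cells with activin A and bFGF. In each cell type 3 cultures were exposed to Δ9-THC, the main psychoactive compound of cannabis, at 100 nM, and 3 received the vehicle. The EpiLC cultures with Δ9-THC had been exposed continuously since the ESC stage. The labels call the libraries biological replicates and do not say which of the female and male clones of these reporter cells, or which of the library kits, was used for each. All 4 groups carry the reporters and received the same media within a cell type. The comparison asked whether exposure changed the RNA of these enzymes, and whether the cytosolic and mitochondrial enzymes changed alike.

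The deposited counts had been adjusted for batch by the authors, separately for each cell type, and totalled between 23427551 and 32096698 per library. The 36 genes together took between 0.747% and 0.969% of a library, and the lowest count of any of them in a library was 181. Levels are given as CPM, counts scaled to the library total after TMM normalization, and levels of different genes are compared as CPM per kb of exon. Within each cell type, vehicle and Δ9-THC libraries with the same replicate number deviated from their group means in opposite directions. The libraries are therefore not independent, and SDs and p-values describe the adjusted counts. The edgeR test without a replicate block treats them as independent. With opposite deviations, its standard errors and p-values for Δ9-THC against vehicle are too small. With the replicate number as a block, the genes called in ESCs went from 906 to 5. In bulk samples, a smaller number of cells expressing a gene and less RNA per cell cannot be told apart. The labelled cell types matched their markers. The 8 naive pluripotency markers summed to between 4191 and 4483 CPM in vehicle ESCs and to between 285 and 305 CPM in vehicle EpiLCs, while the formative and primed markers summed to between 156 and 168 CPM from 5 of 6 genes in vehicle ESCs and to between 1706 and 2035 CPM from 6 genes in vehicle EpiLCs. Of 10 markers of other cell types, 4 were present in each table, and these had means of 13.2 CPM or less over the libraries of a cell type. Gata6, Sox17, Cdx2, Gata3 and Ptprc were in neither table.

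In the vehicle libraries the cytosolic synthetase genes stood well above the mitochondrial ones. The 21 cytosolic genes summed to 1740 ± 59.3 CPM per kb in vehicle ESCs (SD, n = 3), and the 15 mitochondrial genes to 101 ± 0.994 CPM per kb. The ratio of these sums was 17.3 ± 0.736. In vehicle EpiLCs the sums were 1685 ± 133 and 111 ± 1.24 CPM per kb, with a ratio of 15.2 ± 1.09. The median cytosolic gene was at 75.7 CPM per kb in vehicle ESCs and the median mitochondrial gene at 6.30 CPM per kb.

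The highest cytosolic gene in vehicle ESCs was Gars, at 280 ± 15.9 CPM per kb. The lowest was Tarsl2, a threonyl-tRNA synthetase related to Tars, at 2.00 ± 0.0547 CPM per kb, which lay within the range of the mitochondrial genes. Among the mitochondrial genes, Rars2, the arginyl-tRNA synthetase, was highest at 18.0 ± 0.701 CPM per kb, and Wars2, the tryptophanyl-tRNA synthetase, was lowest at 1.22 ± 0.0869 CPM per kb. Farsa, the catalytic subunit of the cytosolic phenylalanyl-tRNA synthetase, was at 19.9 CPM per kb in vehicle ESCs, while Farsb, its partner subunit, was at 84.4 CPM per kb. The exon lengths were those of all annotated exons joined, which were long for Eprs (18102 bases) and Mars2 (11294 bases) and lower their levels per kb.

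For 15 amino acids a cytosolic gene could be set beside a mitochondrial one, with Eprs, which gives a joined glutamyl- and prolyl-tRNA synthetase, standing beside both Ears2 and Pars2. The cytosolic level per kb was higher in every one of the 15 pairs in both cell types. In vehicle ESCs the ratio ran from 4.14 for Rars over Rars2 to 77.7 for Nars over Nars2, with a median of 10.9. In vehicle EpiLCs it ran from 2.82 for Yars over Yars2 to 86.5 for Mars1 over Mars2, with a median of 9.53.

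**Figure D1:**
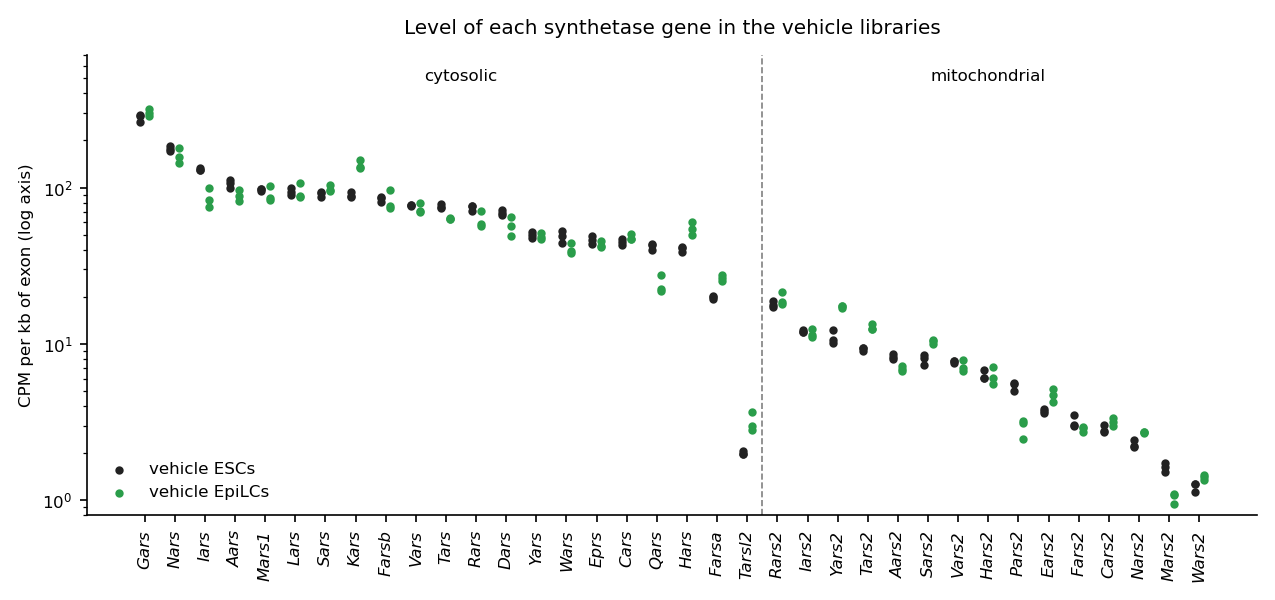
Level of each synthetase gene in the vehicle libraries. Each point is a library, the vertical axis gives CPM per kb of exon on a log scale, and genes are ordered within each compartment by their level in vehicle ESCs. The cytosolic genes run from Gars at 280 CPM per kb down to Tarsl2 at 2.00 CPM per kb in vehicle ESCs, and the mitochondrial genes from Rars2 at 18.0 to Wars2 at 1.22 CPM per kb.

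The levels of several genes differed between the cell types, although the tables were adjusted separately, so these differences are descriptions without a test. Of the 21 cytosolic genes, 6 were higher in every vehicle EpiLC library than in every vehicle ESC library and 5 were lower. Of the 15 mitochondrial genes, 6 were higher and 4 were lower in this sense. Of all 12410 genes in both tables, 37.1% were higher and 38.4% lower in this way. The median log2 ratio of vehicle EpiLCs to vehicle ESCs was -0.07 for cytosolic genes, 0.10 for mitochondrial genes and -0.00014 for all 12410 genes in both tables. Qars, the glutaminyl-tRNA synthetase, had the lowest log2 ratio of the cytosolic genes at -0.81. Kars stood at the other end among the genes of the multi-synthetase complex, with a log2 ratio of 0.64. Pars2, the mitochondrial prolyl-tRNA synthetase, had the lowest log2 ratio of the mitochondrial genes at -0.87, and Yars2, the mitochondrial tyrosyl-tRNA synthetase, had the highest at 0.65. Its cytosolic counterpart Yars differed by a log2 ratio of -0.03.

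The promoters of the cytosolic genes are shown because the core letters of the Atf4 element were found in some of them and in no mitochondrial promoter searched. Promoter sequences of 27 of the 36 genes were found in RefSeq (GRCm38.p6), from 250 bases before to 50 bases after the transcription start. The letters TGATGNAA, the core of the element bound by Atf4 with its C/EBP partners, were searched on both strands. They were present in 5 of 14 cytosolic promoters, in 0 of 13 mitochondrial promoters and in 3.97% of 32851 promoters. The E-box CACGTG was present in 4 of 14 cytosolic and 1 of 13 mitochondrial promoters, against 7.15% of all promoters. The CCAAT box was present in 7 of 14 and 6 of 13, against 37.4% of all promoters. A match describes these letters only and is no evidence of binding. The 5 promoters with TGATGNAA follow, from 150 bases before to 30 bases after the start, 5′ to 3′ on the strand of the gene, with the matching letters of either strand in capitals. Those of Vars2 and Farsa, which have no match and to which the exposure results below turn, are printed for comparison.
Aars, chr8:111033692.0-111033871.0, strand plus: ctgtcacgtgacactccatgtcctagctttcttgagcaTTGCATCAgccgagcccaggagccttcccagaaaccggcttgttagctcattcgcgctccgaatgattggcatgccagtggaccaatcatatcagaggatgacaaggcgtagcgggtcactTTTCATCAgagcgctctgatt
Gars, chr6:55037851.0-55038030.0, strand plus: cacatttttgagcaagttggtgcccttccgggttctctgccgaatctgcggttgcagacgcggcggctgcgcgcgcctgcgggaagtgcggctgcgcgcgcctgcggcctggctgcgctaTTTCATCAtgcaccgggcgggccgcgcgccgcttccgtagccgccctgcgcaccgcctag
Iars, chr13:49681980.0-49682159.0, strand plus: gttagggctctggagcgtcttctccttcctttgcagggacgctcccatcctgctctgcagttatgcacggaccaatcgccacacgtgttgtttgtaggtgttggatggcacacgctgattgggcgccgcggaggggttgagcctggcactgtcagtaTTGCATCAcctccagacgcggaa
Tars, chr15:11399629.0-11399808.0, strand minus: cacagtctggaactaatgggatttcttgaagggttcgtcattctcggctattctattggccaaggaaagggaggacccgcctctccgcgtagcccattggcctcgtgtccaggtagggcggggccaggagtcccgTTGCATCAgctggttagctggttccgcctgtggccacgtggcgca
Yars, chr4:129189753.0-129189932.0, strand plus: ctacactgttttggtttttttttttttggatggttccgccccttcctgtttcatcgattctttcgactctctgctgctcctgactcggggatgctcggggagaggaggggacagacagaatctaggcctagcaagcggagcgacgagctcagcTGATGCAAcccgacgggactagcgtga
Vars2, chr17:35667563.0-35667742.0, strand minus: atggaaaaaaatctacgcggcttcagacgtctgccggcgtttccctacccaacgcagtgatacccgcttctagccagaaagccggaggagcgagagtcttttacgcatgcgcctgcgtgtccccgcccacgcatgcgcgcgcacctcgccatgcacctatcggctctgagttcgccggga
Farsa, chr8:84856836.0-84857015.0, strand plus: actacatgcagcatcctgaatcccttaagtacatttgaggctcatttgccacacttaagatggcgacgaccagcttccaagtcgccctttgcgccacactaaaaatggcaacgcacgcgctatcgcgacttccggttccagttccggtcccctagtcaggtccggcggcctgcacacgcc

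The matches lay close to the start. That of Gars began 30 bases and that of Tars 15 bases before it, those of Yars and Iars began at bases 4 and 8 of the transcript, and Aars had a match 112 bases before the start and another at base 10.

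In ESCs exposed to Δ9-THC, few synthetase genes changed. Both valyl-tRNA synthetase genes passed the test and no other member did. The cytosolic Vars fell by 10.04% and the mitochondrial Vars2 fell by 15.5%. In edgeR (quasi-likelihood, p-values adjusted by Benjamini-Hochberg over all genes), 2 of 36 members were called at an adjusted p of at most 0.05, both lower (5.56%), beside 6.91% of all genes called in either direction and 3.55% called lower. At an unadjusted p under 0.05, 4 members were lower (11.1%), beside 13.8% of all genes, and 1 was higher, beside 14.9% of all genes. The 3 exposed libraries lay wholly below the 3 vehicle libraries for 2 members, beside 15.9% of all genes, and wholly above for 2, beside 16.7% of all genes.

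Vars (ENSMUSG00000007029, chr17:35000987-35016322 on the plus strand of GRCm38) loads valine onto cytosolic tRNA. It was at 436, 431 and 430 CPM in the vehicle ESC libraries and at 384, 390 and 392 CPM in the exposed ones. The groups did not overlap. The log2(fold-change) was -0.15 ± 0.0239 (standard error), with an adjusted p of 0.0301 in edgeR. In EpiLCs Vars was at 396, 447 and 391 CPM with the vehicle and at 364, 321 and 371 CPM with Δ9-THC. There too the groups did not overlap, and the log2(fold-change) was -0.22 ± 0.0886 (adjusted p = 0.312 in edgeR). Vars2 (ENSMUSG00000038838, chr17:35655634-35667592 on the minus strand) loads valine onto mitochondrial tRNA. It was at 41.2, 42.3 and 42.2 CPM in vehicle ESCs and at 35.9, 35.0 and 35.3 CPM in exposed ESCs, again without overlap. Its log2(fold-change) was -0.24 ± 0.0314, with an adjusted p of 0.0283 in edgeR. Vars2 shares 8.52% of its exonic bases with another annotated gene, and the counting ignored strand.

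Both calls were lost in other fits. Vars has the highest GC content of the 36 genes, 60.9%, and Vars2 has 58.6%, beside a median of 48.9% for the members. With offsets that remove each library's trend with GC content and length, the log2(fold-change) of Vars was 0.02 (adjusted p = 0.656 in edgeR) and that of Vars2 was -0.11 (adjusted p = 0.206 in edgeR). With the replicate number as a block the log2(fold-change) stayed at -0.15 and -0.24, and the adjusted p in edgeR was 0.429 for Vars and 0.414 for Vars2. Neither passed when any library was left out, with log2(fold-change) values from -0.16 to -0.14 for Vars and from -0.25 to -0.23 for Vars2, and adjusted p between 0.0721 and 0.134 in edgeR. With a library left out, 0 or 1 of all genes were called. Over all 13104 genes, edgeR made 906 calls in ESCs, 2 with the offsets and 5 with the block.

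The next genes by unadjusted p were Dars, Aars and Wars. Dars, the cytosolic aspartyl-tRNA synthetase, was at 312, 291 and 301 CPM in vehicle ESCs and at 322, 346 and 337 CPM in exposed ESCs, and its groups did not overlap. Its log2(fold-change) of 0.15 ± 0.039 did not pass in edgeR (adjusted p = 0.0629) and passed in DESeq2 (adjusted p = 0.04). Dars has the lowest GC content of the cytosolic genes, 41.2%. With the GC and length offsets its log2(fold-change) was 0.03 (adjusted p = 0.733 in edgeR). With the replicate block it stayed at 0.15 (adjusted p = 0.431 in edgeR). Aars, the cytosolic alanyl-tRNA synthetase, was at 924, 1031 and 994 CPM with the vehicle and at 934, 837 and 876 CPM with Δ9-THC. The groups overlapped, since the exposed library of replicate 1 was above the vehicle library of replicate 1, and the log2(fold-change) was -0.16 ± 0.0558 (adjusted p = 0.128 in edgeR). With the offsets the log2(fold-change) of Aars was -0.04 (adjusted p = 0.757 in edgeR). Aars shares 15.1% of its exonic bases with other genes. Wars, the cytosolic tryptophanyl-tRNA synthetase, was at 152, 181 and 170 CPM with the vehicle and at 157, 131 and 142 CPM with Δ9-THC, with a log2(fold-change) of -0.22 ± 0.086 (adjusted p = 0.149 in edgeR). Its mitochondrial counterpart Wars2 was at 7.58, 6.68 and 7.56 CPM with the vehicle and at 7.58, 8.57 and 7.72 CPM with Δ9-THC.

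In ESCs the median log2(fold-change) was -0.03 for the cytosolic and -0.03 for the mitochondrial genes, beside 0.0041 for all genes tested. Which of these was lower depended on the fit and the libraries. Without the exposed library of replicate 1 they were -0.0644 and -0.018, without that of replicate 2 -0.0241 and -0.055, and with the GC and length offsets -0.043 and -0.0123. Of the cytosolic genes 18 of 21 had a negative value, and of the mitochondrial genes 9 of 15, beside 48.9% of all genes. The range was from -0.22 (Wars) to 0.15 (Dars) in the cytosolic genes and from -0.24 (Vars2) to 0.14 (Mars2) in the mitochondrial genes. The 8 genes of the multi-synthetase complex had a median of -0.02 and the 13 cytosolic genes outside it a median of -0.06. Class I had a median of -0.03 and class II a median of -0.03. Within the 15 amino acid pairs, both genes had negative values in 8 pairs, only the cytosolic gene in 6 and only the mitochondrial gene in 1.

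The ratio of cytosolic to mitochondrial RNA in ESCs was 16.5, 17.9 and 17.4 in the vehicle libraries and 17.8, 16.3 and 16.8 in the exposed ones. The groups overlapped, and the mean log2 ratio with Δ9-THC minus that with the vehicle was -0.0254, smaller than the SD of 0.0618 in either group. Its sign turned without the vehicle library or the exposed library of replicate 2, to 0.0022 and 0.0019. The direction of the cytosolic genes as a group also differed between replicate numbers. Within replicate 1, 2 of 21 cytosolic genes were lower with Δ9-THC than with the vehicle, within replicate 2 19 of 21, and within replicate 3 16 of 21. Of all genes, 49.4%, 49.1% and 50.3% were lower within replicates 1, 2 and 3.

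The share of counts taken by a feature without an annotation entry, ENSMUSG00000119584, lay between 0.477% and 0.639% in vehicle ESCs and between 2.46% and 3.19% in exposed ESCs. Of the formative and primed markers, 5 of 6 were in the ESC table, and they summed to between 156 and 168 CPM with the vehicle and to between 150 and 162 CPM with Δ9-THC, with none at 0. Pou3f1, whose exons overlap Gm2164 in part, fell in exposed ESCs, by a log2(fold-change) of -0.96 (adjusted p = 0.0265 in edgeR), and so did Sox3, by -0.40 (adjusted p = 0.0498 in edgeR). Both were low in vehicle ESCs, at means of 3.83 and 3.99 CPM, and had GC contents of 63.9% and 66.4%. Of the 5 markers, 3 had negative and 2 positive values, and 2 were called lower (40%), beside 3.55% of all genes. These calls came from the test without a replicate block. No values of the markers with the block or with the GC and length offsets are given here. Of the 8 naive markers, 6 had negative values in ESCs, beside 48.9% of all genes, and none was called. Otx2 rose by 0.22 without overlap of the groups (adjusted p = 0.122 in edgeR). The part of this feature and of these markers in the ESC results was not tested.

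**Figure D2:**
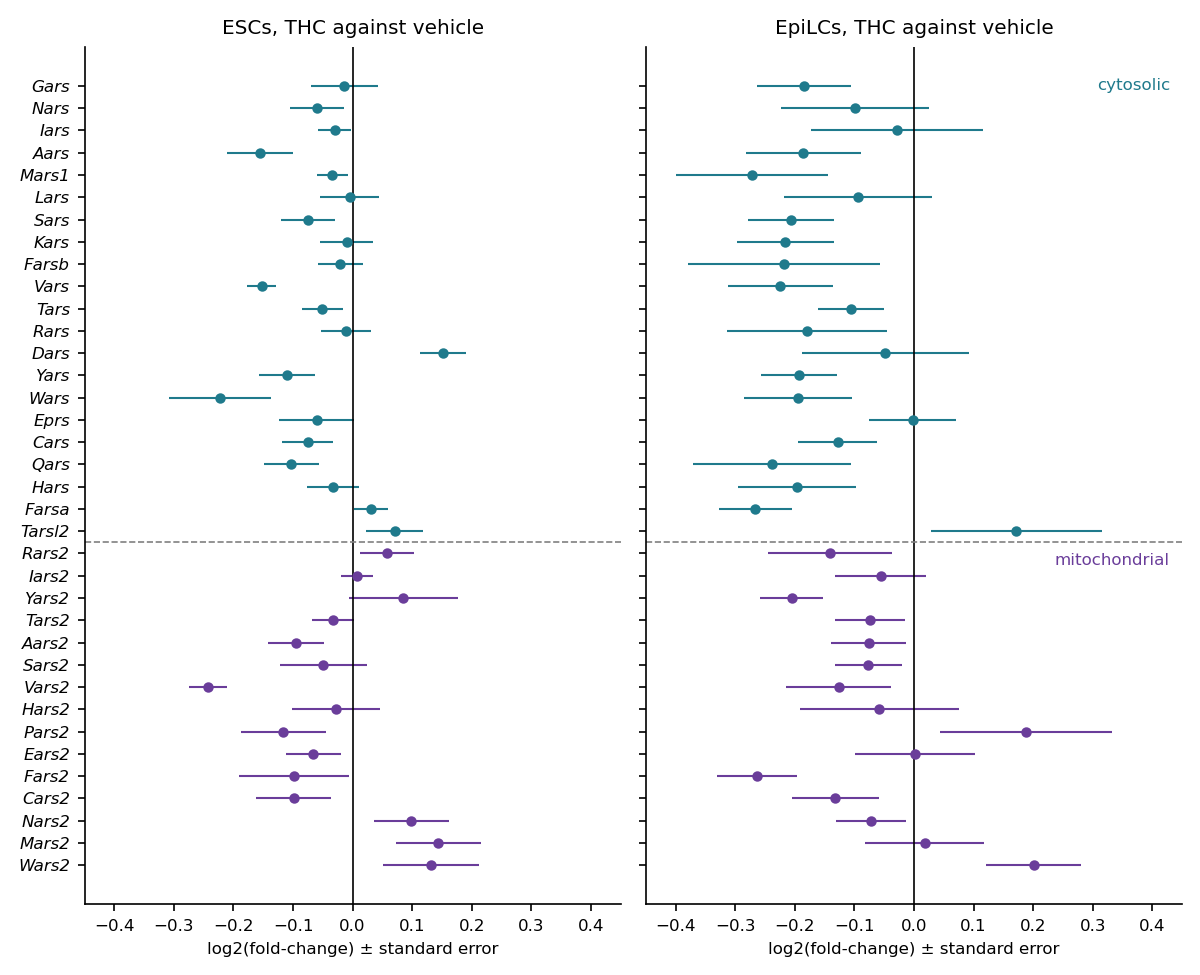
Effect of Δ9-THC on each synthetase gene. Points give the log2(fold-change) of exposed against vehicle libraries with the standard error from edgeR (3 libraries in each group), for ESCs on the left and EpiLCs on the right, and genes are ordered as in the plot of levels. In ESCs the medians of both compartments are at -0.03, and in EpiLCs 20 of 21 cytosolic genes and 11 of 15 mitochondrial genes lie below 0.

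In EpiLCs exposed to Δ9-THC, most synthetase genes had lower values, by small amounts, and none passed the test. The log2(fold-change) was negative for 31 of 36 members, that is 86.1%, beside 49.3% of all genes. By the same edgeR test 0 members were called, beside 0% of all genes, and DESeq2 also called 0 members, beside 0.518% of all genes. At an unadjusted p under 0.05 in edgeR, 7 members were lower (19.4%), beside 6.8% of all genes, and 1 was higher, beside 8.28% of all genes. With the replicate number as a block, the 7 fell to 0 and the share of all genes lower at this p to 0.51%. The 7 were Farsa, Fars2, Yars2, Yars, Sars, Kars and Vars, and the 1 was Wars2. The exposed libraries lay wholly below the vehicle libraries for 14 members (38.9%), beside 10.6% of all genes, and wholly above for Wars2 alone, beside 11.2% of all genes.

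The smallest p belonged to the phenylalanyl-tRNA synthetases of both compartments. Farsa (ENSMUSG00000003808, chr8:84856989-84869257 on the plus strand of GRCm38) was at 120, 125 and 115 CPM in vehicle EpiLCs and at 98.7, 96.2 and 104 CPM in exposed EpiLCs, without overlap. Its log2(fold-change) was -0.27 ± 0.0618, with an adjusted p of 0.173 in edgeR. In a fit of all 12 libraries, which shares the spread between cell types, the adjusted p of Farsa in edgeR was 0.0253. That fit had no replicate block. With the block in EpiLCs alone, 0 of all genes were called. In ESCs Farsa was at 88.4, 91.5 and 91.0 CPM with the vehicle and at 93.9, 91.0 and 91.9 CPM with Δ9-THC. Farsb, the other subunit of the same cytosolic enzyme, had a log2(fold-change) of -0.22 ± 0.161 in EpiLCs, and its groups overlapped. Fars2, the mitochondrial enzyme (ENSMUSG00000021420, chr13:36117412-36726280 on the plus strand), was at 15.8, 16.6 and 16.9 CPM with the vehicle and at 14.1, 13.6 and 13.3 CPM with Δ9-THC in EpiLCs, without overlap. Its log2(fold-change) was -0.26 ± 0.0672, with an adjusted p of 0.199 in edgeR. Fars2 shares 10.7% of its exonic bases with Lyrm4 and Nrn1.

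The tyrosyl-tRNA synthetases of both compartments came next. Yars2 (ENSMUSG00000022792, chr16:16302965-16309640 on the plus strand) was at 54.7, 53.3 and 54.9 CPM in vehicle EpiLCs and at 46.4, 48.3 and 46.7 CPM in exposed EpiLCs. Its log2(fold-change) was -0.21 ± 0.0529, with an adjusted p of 0.2 in edgeR. Yars, the cytosolic enzyme (ENSMUSG00000028811, chr4:129189760-129219607 on the plus strand), was at 279, 303 and 287 CPM with the vehicle and at 261, 242 and 256 CPM with Δ9-THC, and the log2(fold-change) was -0.19 ± 0.0636. Sars, the cytosolic seryl-tRNA synthetase, was at 488, 535 and 493 CPM with the vehicle and at 452, 413 and 449 CPM with Δ9-THC, and the log2(fold-change) was -0.21 ± 0.0723. The groups did not overlap for any of these 3 genes, and the adjusted p in edgeR was 0.244 for Yars and 0.267 for Sars.

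The genes at the ends of the level range gave the following values. Gars was at 890, 995 and 931 CPM in vehicle EpiLCs and at 867, 776 and 834 CPM in exposed EpiLCs, without overlap, while in ESCs its log2(fold-change) was -0.01 ± 0.0564. Rars2 was at 51.3, 59.3 and 49.5 CPM with the vehicle and at 50.3, 42.9 and 52.2 CPM with Δ9-THC in EpiLCs, with overlap. Wars2 was at 8.69, 8.05 and 8.37 CPM with the vehicle and at 9.16, 10.1 and 9.62 CPM with Δ9-THC in EpiLCs, and the exposed libraries were the higher ones. Its log2(fold-change) was 0.20 ± 0.0793 (adjusted p = 0.312 in edgeR), at the lowest level of any mitochondrial gene in ESCs. Tarsl2 was at 20.2, 24.6 and 19.1 CPM with the vehicle and at 25.4, 19.95 and 26.7 CPM with Δ9-THC, the only cytosolic gene with a positive log2(fold-change) in EpiLCs, 0.17 ± 0.143.

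**Figure D3:**
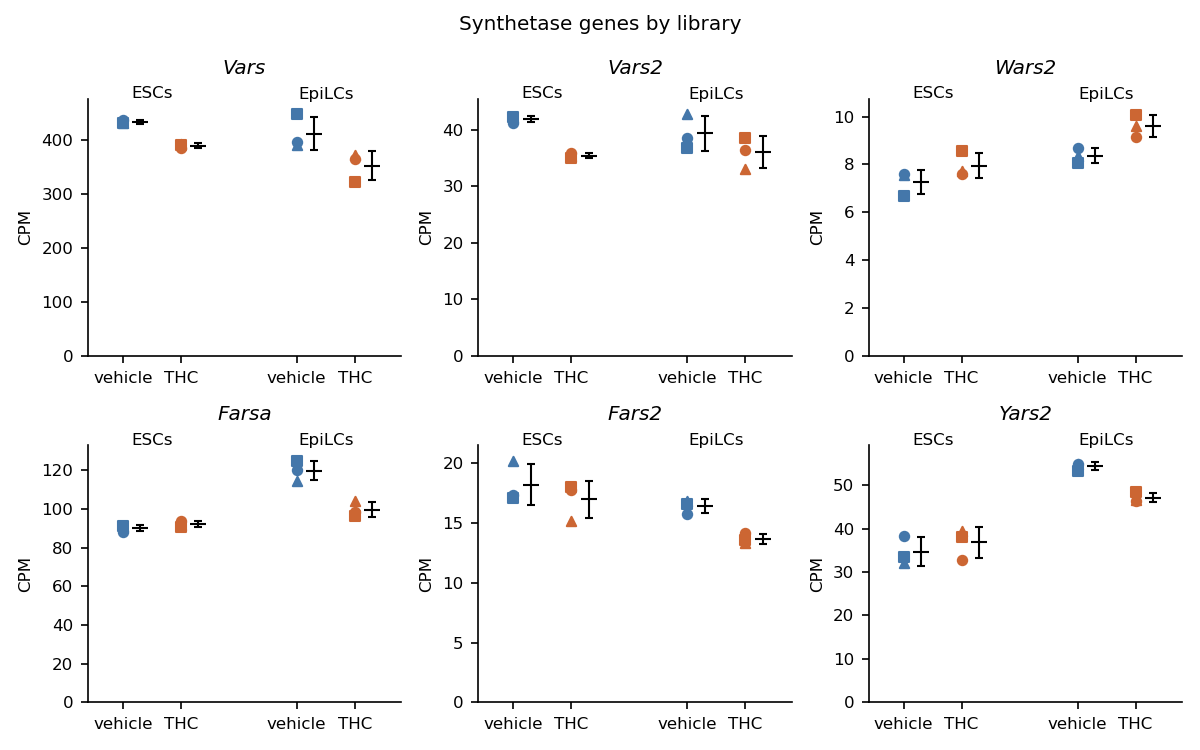
CPM of 6 synthetase genes in each library. Blue symbols are vehicle libraries and orange symbols libraries exposed to Δ9-THC, circles, squares and triangles are replicates 1, 2 and 3, and black bars give the mean and SD of 3 libraries. Vars and Vars2 separate by exposure in ESCs, with Vars at 436 to 430 CPM against 384 to 392 CPM, and Wars2 separates there narrowly. In EpiLCs Vars, Farsa, Fars2, Yars2 and Wars2 separate.

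The cytosolic genes of EpiLCs had a median log2(fold-change) of -0.19 and the mitochondrial genes a median of -0.07, beside 0.0030 for all genes. Negative values were found in 20 of 21 cytosolic and 11 of 15 mitochondrial genes. The exposed libraries lay wholly below the vehicle ones for 10 cytosolic genes (47.6%) and 4 mitochondrial genes (26.7%), beside 10.6% of all genes. The range was from -0.27 (Mars1) to 0.17 (Tarsl2) in the cytosolic genes and from -0.26 (Fars2) to 0.20 (Wars2) in the mitochondrial genes. All 8 genes of the multi-synthetase complex had negative values, with a median of -0.14, and the 13 cytosolic genes outside it had a median of -0.19. Class I had a median of -0.13 and class II a median of -0.10. Both genes of an amino acid pair had negative values in 11 of 15 pairs, and the cytosolic gene alone in 4. The 5 cytosolic genes with TGATGNAA in the printed promoters had log2(fold-change) values between -0.19 and -0.03 with a median of -0.18, and the 9 cytosolic genes whose promoters lacked it a median of -0.22. In ESCs these medians were -0.05 and -0.02.

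The negative median of the cytosolic genes was set mainly by the libraries of replicate 2. The cytosolic sum was 1613, 1838 and 1603 CPM per kb in vehicle EpiLCs and 1569, 1363 and 1587 CPM per kb in exposed EpiLCs, and replicate 2 held both the highest and the lowest value. The median log2 ratio of exposed to vehicle library over the cytosolic genes was -0.46 within replicate 2, -0.05 within replicate 1 and -0.02 within replicate 3. Without both libraries of replicate 2, the median log2(fold-change) of the cytosolic genes was -0.07 and that of the mitochondrial genes -0.10. The mitochondrial sum was 109, 111 and 111 CPM per kb with the vehicle and 104, 103 and 103 CPM per kb with Δ9-THC, without overlap and lower in each replicate number. The ratio of cytosolic to mitochondrial RNA was 14.8, 16.5 and 14.5 in vehicle EpiLCs and 15.1, 13.3 and 15.4 in exposed EpiLCs. The groups overlapped, the mean log2 ratio with Δ9-THC minus that with the vehicle was -0.0659, and the SDs were 0.101 and 0.115. Without the vehicle library of replicate 2 the difference was -0.0081, and without the exposed one it was 0.00026. A change in this ratio with Δ9-THC was thus not detectable in either cell type.

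Of the 8 naive pluripotency markers, 7 had positive log2(fold-change) values in exposed EpiLCs and 1 was negative, beside 49.3% of all genes. None was called, with a smallest adjusted p of 0.216 in edgeR. Their sum lay between 285 and 305 CPM in vehicle libraries and between 309 and 332 CPM in exposed ones, with none of the 8 at 0. Nanog, the highest of them, had means of 187 and 205 CPM. The groups lay apart for 3 of the 8, all higher, beside 11.2% of all genes. Of the 6 formative and primed markers, 3 had positive and 3 negative values. Their sums overlapped, at 1706 to 2035 CPM with the vehicle and 1746 to 2075 CPM with Δ9-THC. The genes of the mitochondrial genome took 3.12%, 2.92% and 5.48% of the counts in vehicle EpiLCs and 5.42%, 5.70% and 2.64% in exposed ones. The 36 synthetase genes took 0.858%, 0.940% and 0.820% in the same vehicle libraries and 0.815%, 0.747% and 0.859% in the exposed ones. The 3 libraries with the highest mitochondrial share had the 3 lowest synthetase shares. The part of these markers and of the mitochondrial share in the synthetase results was not tested. The share of ENSMUSG00000119584 overlapped between the groups, from 0.779% to 3.88% with the vehicle and from 0.418% to 3.97% with Δ9-THC.

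**Figure D4:**
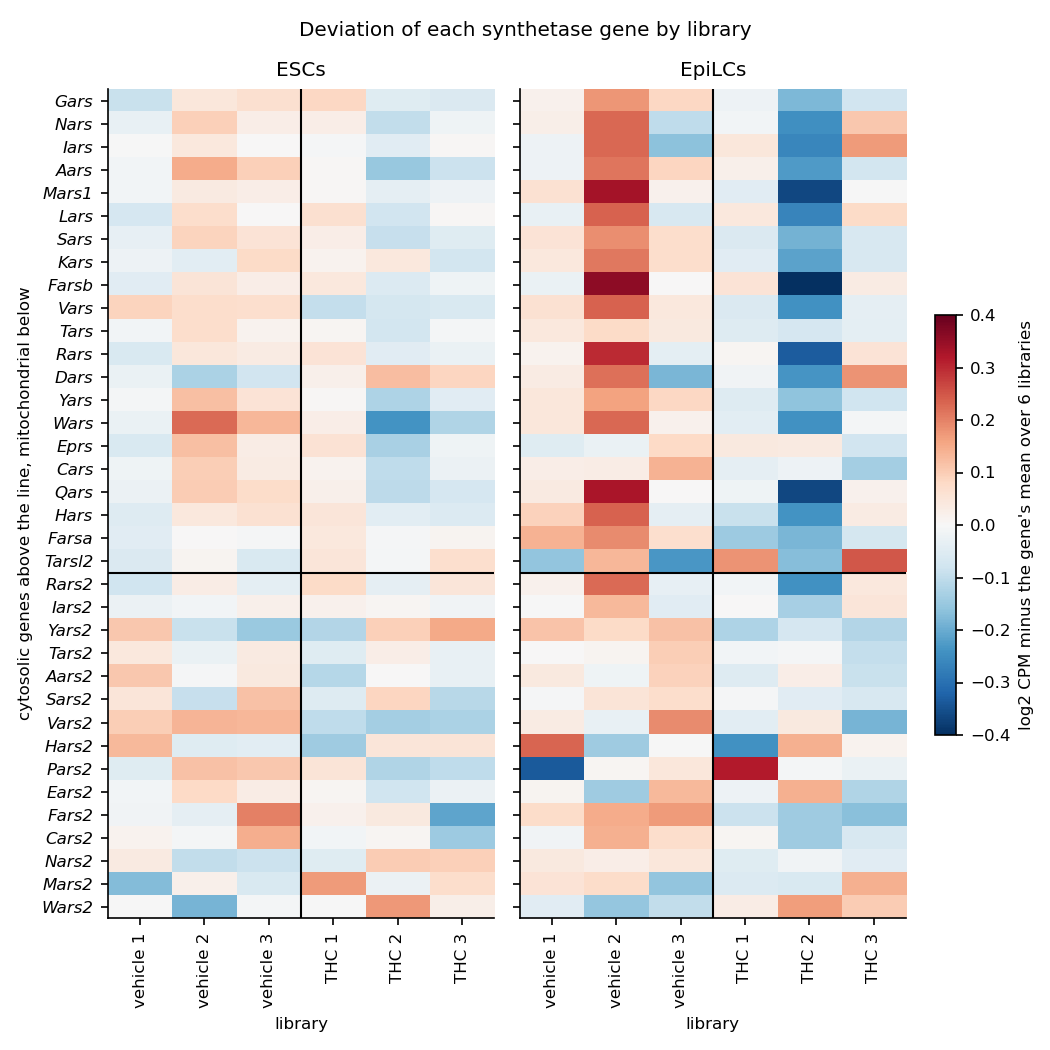
Deviation of each synthetase gene by library. Colours give log2 CPM minus the mean of the gene over the 6 libraries of the cell type, red for higher and blue for lower, with cytosolic genes above the horizontal line and vehicle libraries left of the vertical line. In EpiLCs vehicle replicate 2 is mostly red and exposed replicate 2 mostly blue for the cytosolic genes. Of these, 20 of 21 are lower with Δ9-THC within replicate 2, beside 49.7% of all genes, with a median log2 ratio of -0.46.

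**Figure D5:**
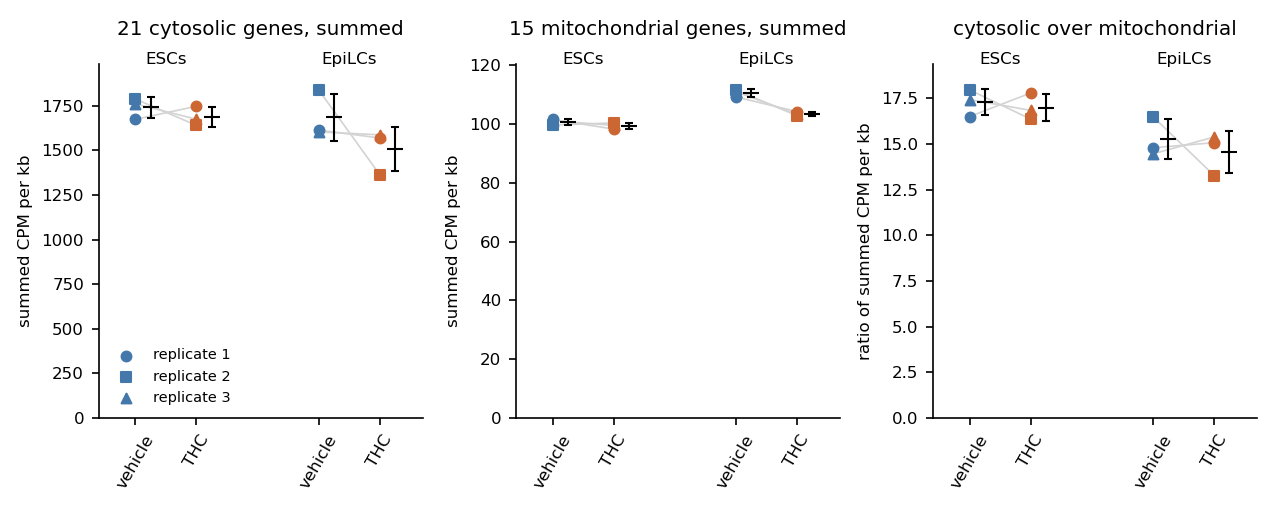
Summed level of cytosolic and mitochondrial synthetase genes and their ratio. Symbols are libraries (blue for vehicle, orange for Δ9-THC) with grey lines between libraries of the same replicate number, and black bars give the mean and SD of 3 libraries. The mitochondrial sums in EpiLCs separate by exposure, 109 to 111 against 103 to 104 CPM per kb, while the ratios overlap in both cell types.

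Whether the effect of Δ9-THC differed between ESCs and EpiLCs was tested as an interaction over the 12410 genes in both tables. With edgeR 0 of 36 members were called, beside 0.0322% of all genes, and 2 had an unadjusted p under 0.05, beside 13.7% of all genes. Farsa had the smallest p of the members. Its effect in EpiLCs was lower than that in ESCs by a log2 difference of -0.28 ± 0.0713, with an adjusted p of 0.125 in edgeR and 0.021 in DESeq2, which called this member alone, beside 1.07% of all genes. Neither of these fits had a replicate block. With the block, and with the GC and length offsets, edgeR called 0 of all genes for the interaction. Over the alternative fits in edgeR and DESeq2, the adjusted p of Farsa lay between 0.021 and 0.9996. For Yars2 the difference was -0.27 ± 0.111, with an adjusted p of 0.308 in edgeR, and its log2(fold-change) was 0.09 ± 0.092 in ESCs. For Vars2, called in ESCs, the difference was 0.13 ± 0.099 (adjusted p = 0.599 in edgeR), so that its effect was not shown to differ between the cell types. The median difference was -0.07 for cytosolic and -0.02 for mitochondrial genes, beside 0.01 for all genes.

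Genes that work beside the synthetases were counted list by list, with the shares of all genes given above as background. Among the scaffolds of the multi-synthetase complex, Eef1e1 rose in ESCs, from 90.8, 87.4 and 92.2 CPM to 99.6, 104 and 98.9 CPM, with a log2(fold-change) of 0.16 ± 0.0337 and an adjusted p of 0.0447 in edgeR and 0.0512 in DESeq2. The log2(fold-change) in ESCs was 0.04 for Aimp1 and 0.0045 for Aimp2. In EpiLCs 0 of the 3 scaffolds passed and the values were -0.14 for Eef1e1, -0.02 for Aimp1 and -0.27 for Aimp2. Of the mitochondrial genes for transamidation and formylation, which make glutaminyl-tRNA and formylmethionyl-tRNA, 0 of 4 were called in either cell type. The log2(fold-change) of Gatc in ESCs was -0.14 and that of Qrsl1 in EpiLCs was -0.21, each with an unadjusted p under 0.05, while Gatb was at -0.09 and -0.02 and Mtfmt at -0.03 and -0.01 in ESCs and EpiLCs. Of 5 listed editing factors, which remove wrongly loaded amino acids, 4 were in the tables and 0 were called in either cell type. Prorsd1 had an unadjusted p under 0.05 in ESCs, at 0.18.

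Of 5 genes for selenocysteine tRNA and its use, Eefsec, the elongation factor for selenocysteine, fell in ESCs by a log2(fold-change) of -0.22 ± 0.0352 (adjusted p = 0.0301 in edgeR). Secisbp2 had an unadjusted p under 0.05 there, at -0.13, and 0 of 5 were called in EpiLCs. The elongation factors, which carry charged tRNA to the ribosome or move it along, gave 0 calls among 5 cytosolic and 4 mitochondrial genes in both cell types. All 9 had negative values in both, beside 48.9% of all genes in ESCs and 49.3% in EpiLCs. Eef2 had an unadjusted p under 0.05 in ESCs, at -0.12, and Eef1g in EpiLCs, at -0.19. Tufm, the mitochondrial factor that delivers charged tRNA, was at 154, 171 and 149 CPM in vehicle EpiLCs and at 124, 112 and 129 CPM in exposed ones, with a log2(fold-change) of -0.38 ± 0.0834 (adjusted p = 0.172 in edgeR).

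Of 10 genes that sense uncharged tRNA or respond to Atf4, 2 were called in ESCs, both lower. Gcn1, a partner of the kinase Gcn2, fell by a log2(fold-change) of -0.17 ± 0.0376 (adjusted p = 0.0499 in edgeR), and Phgdh, the first enzyme of serine synthesis, by -0.11 ± 0.024 (adjusted p = 0.0489 in edgeR and 0.0776 in DESeq2). At an unadjusted p under 0.05 in edgeR without a replicate block, 6 of the 10 were lower in ESCs (60%), beside 13.8% of all genes. None was higher, beside 14.9% of all genes. The others were Ddit3 at -0.41, Trib3 at -0.31, Chac1 at -0.28 and Sesn2 at -0.27. Their log2 ratios within replicate 1 were -0.04, -0.03, -0.10 and -0.15, and within replicate 2 -0.80, -0.65, -0.66 and -0.50. Trib3, Chac1 and Sesn2 had GC contents of 58.2%, 57.4% and 58.7%, and Ddit3 had 45.6%. For these genes, no values with the offsets or the block are given here. Ddit3 overlaps Mars1 over 1.99% of the exonic bases of Mars1. Atf4 itself was at -0.06 ± 0.0345 in ESCs and -0.11 ± 0.0916 in EpiLCs. In EpiLCs 0 of 10 were called, with Trib3 lower at -0.14 and Eif2ak4, the gene of Gcn2, higher at 0.19, both at an unadjusted p under 0.05. Lars2, the mitochondrial leucyl-tRNA synthetase outside the 36, had log2(fold-change) values of 1.47 in ESCs and -0.13 in EpiLCs, the former beyond the range of every member in ESCs, and its adjusted p in ESCs was 0.0283 in edgeR. The ESC calls of Eef1e1, Eefsec, Gcn1 and Phgdh ended with the GC and length offsets (adjusted p between 0.136 and 0.824 in edgeR), where their log2(fold-change) values were 0.08, -0.13, -0.04 and -0.01. They also ended with the replicate block (between 0.418 and 0.536), where the values stayed at 0.16, -0.22, -0.17 and -0.11. Eef1e1 and Phgdh did not pass in DESeq2 either. Lars2 had an adjusted p of 0.0814 with the offsets and 0.00269 with the block in edgeR. In ESCs Lars2 was at 162, 139 and 209 CPM with the vehicle and at 492, 556 and 366 CPM with Δ9-THC. The share of counts of ENSMUSG00000119584 ranked these ESC libraries in the same order as Lars2. In EpiLCs the orders differed. The part of this feature in the Lars2 values was not tested.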

How the data were processed

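RNA-seq counts of mouse ESCs and EpiLCs were used, 12 libraries in 4 groups of 3. The authors demultiplexed with bcl2fastq 2.19.1.403, aligned with STAR, kept uniquely mapped reads, counted reads per gene with HTSeq without strand, removed genes with low counts and adjusted the counts for batch with ComBat-seq. The deposited counts are whole numbers, with a table per cell type, and library sizes were left as they were. The sources name mm10 and GRCm39 and do not name the batches. All 12 columns were mapped by label, 0 were left over, and PGCLC libraries were not analysed here.

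Within a cell type the exposures were tested with edgeR 4.0.16 in R 4.3.3 (quasi-likelihood test, TMM, total count above 10), with Benjamini-Hochberg adjustment over all genes at 0.05. The interaction used the 12 libraries. Standard errors follow from the F statistic. Levels between the tables were not tested. Gene names, positions, GC content and exon lengths came from GENCODE M21 (GRCm38), and 13083 ESC and 13696 EpiLC genes had a GC content. Promoters came from RefSeq. Fits were tested on simulated data with independent libraries. The opposite deviations of same-numbered libraries were not simulated, so that test cannot tell how the p-values behave under them. Python 3.11.15, pandas 2.3.3 and matplotlib 3.10.9 made tables and figures.

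The members and gene lists were chosen with earlier results of these data known. The genes given library by library are those with an adjusted p of at most 0.05, the 5 smallest p in each cell type, the 2 smallest interaction p, and the highest and lowest level of each compartment in vehicle ESCs. Genes of other lists were named where the unadjusted p was under 0.05 or the list held at most 4 genes, and Farsb, Lars2, Atf4, Kars, Qars and Pars2 after their values were seen. Alternatives were RLE, no filter, a minimum of 10 counts per library, the replicate block, GC and length offsets (splines with 5 degrees of freedom), both, DESeq2 1.42.0, a fit of all 12 libraries and each library left out. Leaving out both libraries of a replicate number was added after seeing the data. Counting error weighs most on members with few counts, such as Wars2 with 181 in a library.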

Additional observations from a re-analysis of the deposited data

How the results depend on the processing

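RLE normalization, no filter and at least 10 counts in every library changed no call, and each gave 2 called members in ESCs and 0 in EpiLCs. Leaving Gars and Kars out changed no direction. The calls of Vars and Vars2 in ESCs ended, giving 0 called members, with the replicate block, with GC and length offsets, with both, and in the fit of all 12 libraries (adjusted p 0.255 and 0.114 in edgeR). Under the offsets the log2(fold-change) of Vars reversed to 0.0218 (0.0218 with the block too) and that of Rars2 to -0.028 (-0.0278 with the block).

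Same-numbered vehicle and exposed libraries had deviations with correlations between -0.987 and -0.977 in ESCs and between -0.985 and -0.979 in EpiLCs over genes, against 0.369 to 0.604 and 0.223 to 0.695 between different numbers. The number thus tied a vehicle library to an exposed one, by opposite and not by shared deviations. With the replicate block the members lower at an unadjusted p under 0.05 were 3 in ESCs and 0 in EpiLCs, against 4 and 7, and with the offsets and the block 0 and 1. No crossed pairing was tried.

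In EpiLCs, members lower at an unadjusted p under 0.05 numbered 12 with the offsets (beside 7.31% of all genes) and 14 in the fit of all 12 libraries (beside 10% of all genes), which called 1 member, Farsa, and 411 of 12410 genes. The median log2(fold-change) of the mitochondrial genes was -0.0123 in ESCs and -0.12 in EpiLCs with the offsets, and -0.0126 and -0.12 with offsets and block. DESeq2 called 1 member, Farsa, for the interaction, beside 1.07% of all genes. With the replicate block, edgeR called 0 of all genes for the interaction. In ESCs it called 3 members, with Dars added, beside 5.75% of all genes.

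With each library left out, the members called in ESCs numbered 0 (2 with all libraries) and those lower at an unadjusted p under 0.05 between 2 and 6. The median of the mitochondrial genes in ESCs lay between -0.055 and -0.0175 and that of the cytosolic genes between -0.0644 and -0.0233. In EpiLCs 3 to 7 members were lower at an unadjusted p under 0.05, with 3 when the vehicle or the exposed library of replicate 2 was left out, and the cytosolic median lay between -0.235 and -0.125. Gars in ESCs ran from -0.0609 to 0.0113, with the positive values when a library of replicate 2 or 3 was left out.

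Without both libraries of replicate 1, 10 members were called and 14 were lower at an unadjusted p under 0.05 in ESCs, where 13.4% of all genes were called and 16.6% were lower at that p, and the medians were -0.0982 (cytosolic) and -0.00913 (mitochondrial). Without those of replicate 2 or 3, 0 were called in ESCs, 4 and 2 were lower at an unadjusted p under 0.05, and the mitochondrial median was -0.0534 and -0.0112. In EpiLCs 4, 9 and 4 members were lower at an unadjusted p under 0.05 without replicates 1, 2 and 3, beside 5.39%, 16.1% and 6.75% of all genes. Named genes were not followed under the removal of a replicate number. The cause of these differences was not tested.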
